A study of Mus musculus with 2 samples.

Results

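ERK feedback and output genes are a set of 10 mouse genes whose transcription follows the RAS-RAF-MEK-ERK cascade, namely Dusp4, Dusp5, Dusp6, Spry2, Spry4, Spred1, Etv4, Etv5, Phlda1 and Fosl1. They were chosen by symbol, with earlier results of these data known, and all 10 were found among the 31052 gene rows of the count table. They are described here in hepatocytes ordered by their content of Nras transcript, and then in the other liver cell types of the same pool. A cell counted as a hepatocyte when Alb, Apoa1, Apoa2, Ttr and Fgb, genes for abundant plasma proteins of the liver, together held at least 1% of its gene UMIs. A UMI marks 1 captured transcript molecule.

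RAS is a membrane-bound switch that, when loaded with GTP, recruits RAF kinases and so starts a chain of phosphorylation through MEK to ERK. Active ERK enters the nucleus and changes transcription, and many of the genes it turns on act back on the cascade. DUSP phosphatases remove phosphate from ERK and its relatives, while Sprouty and SPRED proteins act further up, between receptor, RAS and RAF. Because these genes are targets of the pathway that they restrain, their transcripts are widely used as a readout of ERK output, and in the liver the same cascade carries growth factor signals during regeneration.

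The livers came from 3 female C57BL/6 mice, injected at 6 to 8 weeks of age and examined on day 6 after hydrodynamic tail-vein injection, in which a large volume of fluid forces plasmid into part of the hepatocytes. All 3 mice received a Sleeping Beauty transposon with mVenus, a yellow fluorescent protein, and NRAS under the CAGGS promoter, together with a transposase plasmid. For 2 mice the NRAS was the oncogenic G12V form. For 1 control mouse it was G12V/D38A, whose second change lies in the loop that binds effectors. Cells of each mouse carried their own hashtag, an antibody with a DNA tag, and were sorted for mVenus, pooled and sequenced as 1 gene library and 1 hashtag library. The deposited pairing gives hashtag 1 to the D38A mouse and hashtags 2 and 3 to the G12V mice, whereas the methods of the study give hashtags 1 and 2 to G12V and hashtag 3 to D38A. Hashtag 2 is a G12V mouse in both. Mice are therefore named by hashtag, no comparison between the constructs was made, and all comparisons by Nras were made within mice. The mouse Nras row also takes up reads of the construct, reaching 1427 UMIs in a single barcode, so a cell's Nras level stands for the endogenous gene and the transgene together.

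The gene library held 141975897 UMIs in 13151 barcodes, with a median of 3908. Of 10219 barcodes that passed the filters, 8509 were hepatocytes by the gate. Of these, 2306 held at least 10000 UMIs, and only these deep hepatocytes were ordered by Nras, since in a shallow cell a single Nras UMI can already pass the lowest Nras limit. A single hashtag was called in 1385 of them, 231 for hashtag 1, 1129 for hashtag 2 and 25 for hashtag 3. They were placed in 4 classes, namely baseline (under 200 Nras UMIs per 1000000), low (200 to 800), intermediate (800 to 2500) and highest (2500 and more). Hashtag 1 gave 143, 34, 27 and 27 cells in this order, and hashtag 2 gave 757, 177, 110 and 85. Hashtag 3 gave 20 baseline cells and too few others to be used, so every step between classes rests on 2 mice, of which hashtag 1 may be the D38A mouse. Levels are CPM, the UMIs of a gene per 1000000 UMIs of the summed cells, and they are not divided by gene length and are not compared between genes.

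The classes also differed in ways other than Nras. The mVenus level went from 8.35 to 363 CPM between baseline and highest cells of hashtag 1 and from 5.48 to 315 CPM for hashtag 2. Median depth was 27865 UMIs in baseline and 50645 in highest cells of hashtag 1, and 41415 and 59160 in hashtag 2. The 5 hepatocyte genes went from 7.59% to 4.58% of UMIs in hashtag 1 and from 10.1% to 4.71% in hashtag 2. Of the marker lists of other cell types, the 6 cholangiocyte markers summed to 3605 CPM in baseline and 14290 in highest cells of hashtag 1, and to 2426 and 18860 CPM for hashtag 2. Nearly all of this was Spp1, the osteopontin gene, while the duct keratin gene Krt19 was at 0 in the highest cells of both hashtags and Krt7 was at 0 in those of hashtag 1. The other 5 markers without Spp1 summed to 83.5 and 159.5 CPM in baseline and highest cells of hashtag 1 and to 78.0 and 134 CPM for hashtag 2. Cells that passed the cholangiocyte gate were 8 of 143 and 4 of 27 in hashtag 1 and 31 of 757 and 16 of 85 in hashtag 2. The 7 stellate markers went from 87.0 to 632 CPM and from 134 to 622 CPM, again mostly from 1 gene, Ecm1, with the collagen gene Col1a1 at 0 in the highest cells of both. The 10 endothelial markers summed to 165 CPM in baseline and 36.5 in highest cells of hashtag 1, to 20.1 and 27.1 in hashtag 2, and to 1276 CPM in the baseline cells of hashtag 3, of which 13 of 20 also passed the endothelial marker gate. The 6 mature dendritic markers summed to 96.2 and 2.86 CPM in baseline and highest cells of hashtag 1 and to 12.4 and 17.0 CPM for hashtag 2, and the 8 conventional dendritic markers to 66.2 and 15.7 CPM and to 8.30 and 8.31 CPM. The part of these differences in the results below was not tested. Without the hepatocytes that also passed the marker gate of another type, the log2 fold changes from baseline to highest of the 6 called members were 0.89 for Dusp4, 1.13 for Dusp5, 0.72 for Dusp6, 1.77 for Spry2, 2.51 for Etv4 and 3.57 for Fosl1, and cells with fewer markers stayed in.

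Promoter windows are shown so that members called higher with Nras can be read beside Spred1, which was not called. RefSeq start sites on GRCm38.p6 were held for 5 of the 10 members, and the 250 bases before the start of 4 of them are printed 5′ to 3′ in the direction of transcription. Dusp5, Dusp6 and Spry2 were called higher with Nras, and Spred1 was not. Dusp4, Etv4 and Fosl1 were also called higher, but no start site was held for them. Capitals mark CGGAA on either strand, which is the GGAA core of ETS factor sites with a C before it, and the CArG box that serum response factor binds. GGAA with another base before it was not marked. Both motifs were added after the windows had been seen. The Dusp5 window is chr19:53528895-53529144 (plus strand), that of Dusp6 is chr10:99262981-99263230 (plus), that of Spry2 is chr14:105896820-105897069 (minus) and that of Spred1 is chr2:117120821-117121070 (plus). For Dusp5 and Spred1 the RefSeq start differs from the gene start of the GENCODE annotation given with each gene.
Dusp5: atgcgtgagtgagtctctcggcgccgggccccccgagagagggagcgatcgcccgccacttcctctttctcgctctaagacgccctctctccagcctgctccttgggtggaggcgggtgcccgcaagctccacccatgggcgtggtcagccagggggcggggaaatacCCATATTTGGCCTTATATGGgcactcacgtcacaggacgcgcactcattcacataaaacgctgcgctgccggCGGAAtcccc
Dusp6: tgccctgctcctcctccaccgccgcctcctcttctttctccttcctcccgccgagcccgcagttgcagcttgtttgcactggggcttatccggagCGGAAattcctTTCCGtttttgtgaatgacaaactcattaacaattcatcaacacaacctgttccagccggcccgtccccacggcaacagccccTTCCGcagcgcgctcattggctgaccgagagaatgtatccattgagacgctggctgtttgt
Spry2: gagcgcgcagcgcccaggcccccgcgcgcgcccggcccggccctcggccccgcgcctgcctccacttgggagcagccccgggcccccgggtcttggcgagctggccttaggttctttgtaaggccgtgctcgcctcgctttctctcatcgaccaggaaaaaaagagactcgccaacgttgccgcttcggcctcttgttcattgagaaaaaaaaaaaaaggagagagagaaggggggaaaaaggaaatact
Spred1: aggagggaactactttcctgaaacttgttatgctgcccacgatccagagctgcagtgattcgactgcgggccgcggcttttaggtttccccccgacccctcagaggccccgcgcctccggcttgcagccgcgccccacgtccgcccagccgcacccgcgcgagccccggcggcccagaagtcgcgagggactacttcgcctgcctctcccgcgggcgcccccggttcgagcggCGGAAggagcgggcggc
Dusp5 held 2 CArG boxes next to each other, from base -82 to -73 and from -72 to -63 counted from the start site, and 1.47% of 32851 promoter windows of the same length held this motif. Dusp6 held CGGAA 3 times, Dusp5 and Spred1 once each, and 25.2% of windows held it. TGANTCA (AP-1), TGACGTCA (CRE) and CCGGAAG (a longer ETS site), searched on both strands, were in none of the windows of these 5 members, against 6.75%, 1.55% and 6.91% of all windows. A match is a description of letters and says nothing about binding in these cells.

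To ask how ERK output follows the level of Nras, UMIs were summed per hashtag and class and the highest class was tested against baseline within mice. Of the 10 members, 6 were higher in highest than in baseline cells (edgeR's quasi-likelihood test, adjusted p under 0.05) and none was lower. All 10 had passed the filter on low counts. Of 10988 genes tested, 13.2% were called higher and 12.9% lower, 26.1% in all. The largest rises among the members were those of Fosl1, Etv4 and Spry2. The median log2 fold change of the 10 was 0.90, beside -0.02 over all genes tested. Since the members were chosen with earlier results of these data known, their count and median are not independent evidence of a direction. Dusp4, Dusp5 and Dusp6 rose less, and Spry4, Spred1, Etv5 and Phlda1 were not called.

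**Figure D1:**
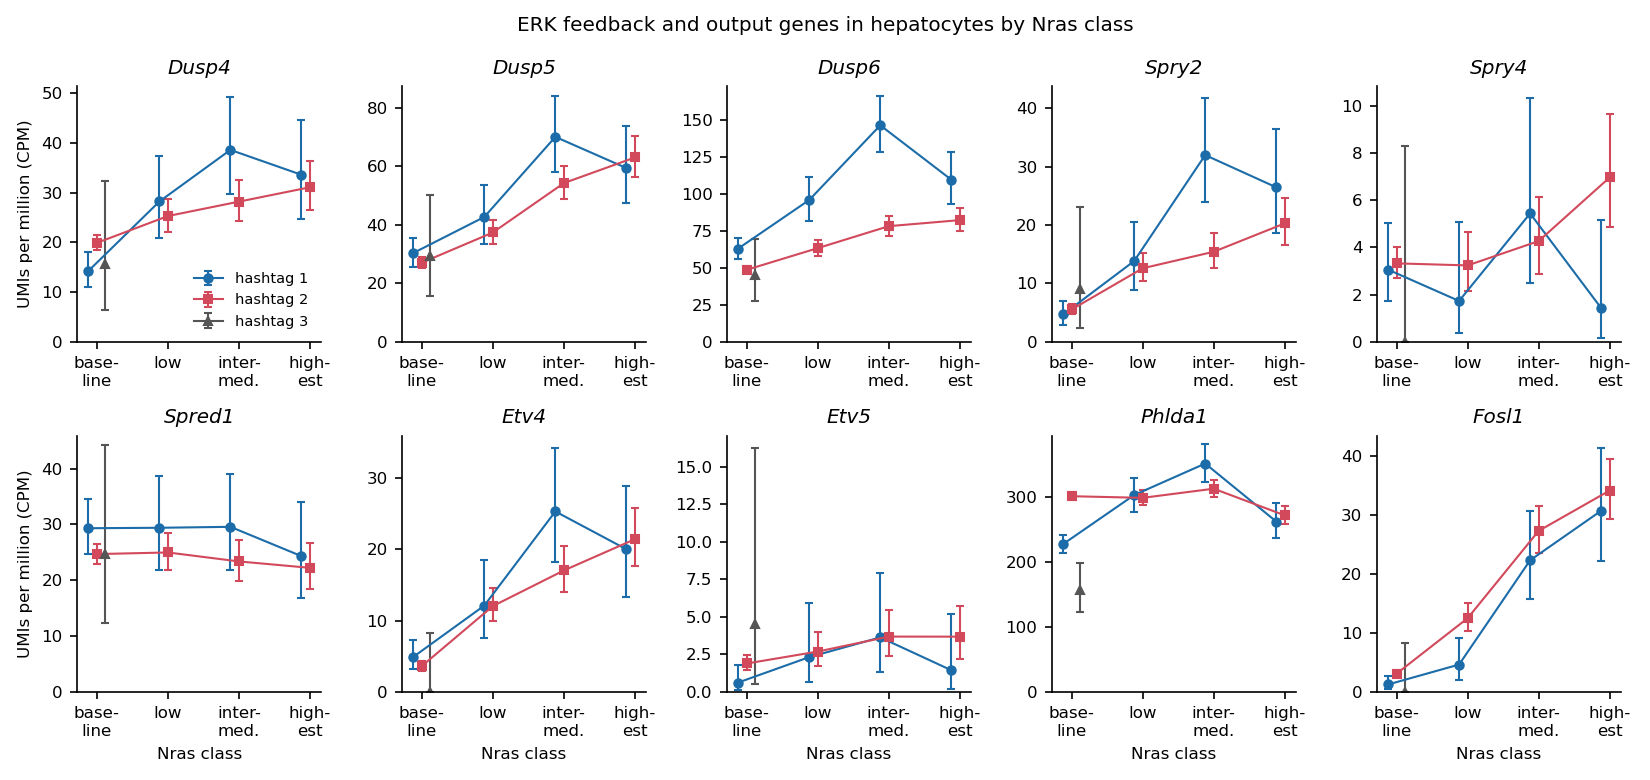
Level of each member (y axis, UMIs per 1000000 on a linear scale from 0) in deep hepatocytes by Nras class (x axis), for hashtag 1 (circles), hashtag 2 (squares) and the baseline cells of hashtag 3 (triangles), with exact Poisson 95% intervals that cover counting error only. Fosl1 climbs through all classes in both hashtags, Spred1 lies flat between 22.2 and 29.6 CPM in hashtags 1 and 2, and 9 of 10 members of hashtag 1 peak in the intermediate class.

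Among the transcription factors, Fosl1 (ENSMUSG00000024912, chr19:5447547-5455946, plus strand, GRCm38), which encodes the AP-1 subunit FRA1, had 1.22, 4.61, 22.3 and 30.8 CPM in baseline, low, intermediate and highest cells of hashtag 1. In hashtag 2 its levels were 3.07, 12.5, 27.3 and 34.2 CPM, and it was at 0 in the baseline cells of hashtag 3. The counting intervals of baseline and highest cells did not overlap in either mouse, and each class was above the one before it. The fitted log2 fold change from baseline to highest was 3.69 (SE 0.28, adjusted p = 5.4e-06), a 12.9-fold rise.

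Etv4 (ENSMUSG00000017724, chr11:101769742-101785371, minus strand), an ETS factor of the PEA3 group that ERK signalling both induces and uses, had 4.89, 12.1, 25.4 and 20.03 CPM in the classes of hashtag 1 and 3.603, 12.04, 17.1 and 21.4 CPM in those of hashtag 2. It was at 0 in the baseline cells of hashtag 3. Its log2 fold change was 2.39 (SE 0.22, adjusted p = 1.8e-05). In each mouse the largest relative step was the first, from baseline to low.

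Etv5 (ENSMUSG00000013089, chr16:22381309-22439719, minus strand), its close relative, was sparse. It had 0.61, 2.31, 3.62 and 1.43 CPM for hashtag 1, where the highest class held 2 UMIs and the baseline class 3, and 1.88, 2.68, 3.67 and 3.67 CPM for hashtag 2. The fitted log2 fold change was 0.98 (95% interval -0.18 to 2.14, adjusted p = 0.21), so a difference was not detectable at this depth, and the interval reaches the size found for Spry2.

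Of the Sprouty genes, Spry2 (ENSMUSG00000022114, chr14:105891947-105896819, minus strand), an inhibitor of receptor signalling to RAS and RAF, had 4.69, 13.8, 32.0 and 26.5 CPM for hashtag 1 and 5.55, 12.6, 15.4 and 20.3 CPM for hashtag 2. The baseline cells of hashtag 3 had 9.004 CPM. The rise from baseline to highest was 2.02 on the log2 scale (SE 0.27, adjusted p = 0.00025), and in both mice every higher class lay above baseline.

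Spry4 (ENSMUSG00000024427, chr18:38586247-38601415, minus strand), a second Sprouty gene, did not show a shared direction. It had 3.06, 1.73, 5.43 and 1.43 CPM for hashtag 1, with only 2 UMIs in the highest class, and 3.32, 3.23, 4.26 and 6.96 CPM for hashtag 2. The fitted log2 fold change was 0.67 (95% interval -0.27 to 1.63, adjusted p = 0.30). Spred1 (ENSMUSG00000027351, chr2:117121374-117182279, plus strand), whose product holds neurofibromin at the membrane against RAS, stayed at 29.3, 29.4, 29.6 and 24.3 CPM for hashtag 1 and at 24.7, 24.98, 23.4 and 22.2 CPM for hashtag 2. Its log2 fold change was -0.19 (95% interval -0.50 to 0.11, adjusted p = 0.35), an interval that leaves out a rise of the size of any called member.

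The 3 phosphatase genes rose together but by less than Fosl1, Etv4 or Spry2. Dusp5 (ENSMUSG00000034765, chr19:53529109-53542431, plus strand), a nuclear phosphatase for ERK, had 30.4, 42.7, 70.0 and 59.4 CPM for hashtag 1 and 27.0, 37.4, 54.2 and 63.0 CPM for hashtag 2. Its log2 fold change from baseline to highest was 1.13 (SE 0.13, adjusted p = 7.9e-05). In each mouse the baseline and highest intervals did not overlap.

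Dusp6 (ENSMUSG00000019960, chr10:99263231-99267489, plus strand), the cytoplasmic ERK phosphatase, had 63.0, 95.7, 146 and 109 CPM for hashtag 1 and 48.6, 63.2, 78.1 and 82.1 CPM for hashtag 2, a log2 fold change of 0.78 (SE 0.14, adjusted p = 0.0021). Dusp4 (ENSMUSG00000031530, chr8:34807297-34819894, plus strand), a nuclear phosphatase for ERK and other MAP kinases, had 14.3, 28.3, 38.6 and 33.6 CPM for hashtag 1 and 19.9, 25.3, 28.2 and 31.1 CPM for hashtag 2, a log2 fold change of 0.82 (SE 0.21, adjusted p = 0.013). These were the calls that depended on the test. Without the replicate block for mouse, Dusp6 was no longer called (log2 fold change 0.85, adjusted p = 0.054), and with DESeq2 Dusp4 was not (0.90, adjusted p = 0.0772).

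Phlda1 (ENSMUSG00000020205, chr10:111506286-111508645, plus strand), a pleckstrin homology protein used as a marker of ERK output, had 228, 303, 352 and 262 CPM for hashtag 1 and 302, 299, 313 and 272 CPM for hashtag 2, with 158 CPM in the baseline cells of hashtag 3. It was highest in the intermediate class of both hashtags, and between baseline and highest it lay 0.21 higher on the log2 scale in hashtag 1 and 0.15 lower in hashtag 2. The fitted change was 0.02 (95% interval -0.30 to 0.34, adjusted p = 0.96).

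**Figure D2:**
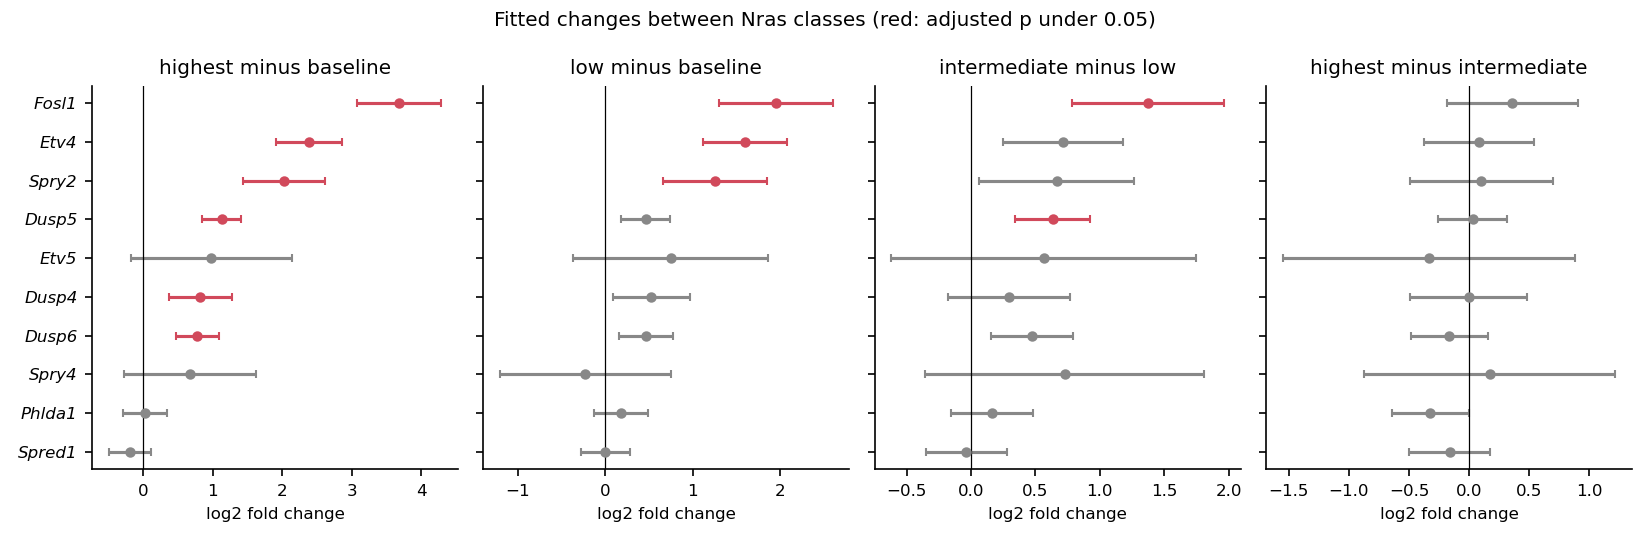
Fitted log2 fold change of each member (points, x axis) with its 95% interval (lines) for highest against baseline and for the 3 steps between neighbouring Nras classes, with red for an adjusted p under 0.05. The 6 called members stand to the right of 0 in the first panel, 3 are called from baseline to low, 2 from low to intermediate, and none from intermediate to highest.

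The steps between neighbouring classes showed where along the Nras scale the members moved. From baseline to low, Etv4 rose by 1.60 (SE 0.22, adjusted p = 0.0026), Fosl1 by 1.95 (SE 0.30, adjusted p = 0.0044) and Spry2 by 1.26 (SE 0.27, adjusted p = 0.027) on the log2 scale. These 3 of 10 members compare with 1.87% of all genes called higher, 2.32% lower and 4.19% in either direction in this step. From low to intermediate, Fosl1 rose by 1.37 (SE 0.27, adjusted p = 0.029) and Dusp5 by 0.63 (SE 0.13, adjusted p = 0.039), beside 0.846% of all genes higher and 1.83% in either direction. From intermediate to highest, edgeR called 0 members and 0.0091% of genes in either direction, while at an unadjusted p under 0.05 there were 1 member, Phlda1, which was lower, and 744 genes. DESeq2 also called 0 members there. The interval of the last step was -0.19 to 0.90 for Fosl1, -0.38 to 0.54 for Etv4, -0.49 to 0.70 for Spry2 and -0.26 to 0.32 for Dusp5, so a further rise was not detectable, while the upper bounds leave room for one.

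The calls of single steps moved with the settings. Without the replicate block for mouse, 1 member, Etv4, was called from baseline to low and 0 from low to intermediate, beside 141 and 1 of 10988 genes. With DESeq2 the counts were 1, Fosl1, and 0, beside 236 and 162 genes. Doubled Nras limits left 9 members and 9200 genes to test. Then 6 members and 936 genes were called in the first step and 0 and 17 in the second. With halved limits the members called were 0 and 1, beside 5 and 95 of 10156 genes. Which step carries a member's rise therefore depends on where the limits lie, and the genes called over all moved with the limits as well. The difference between the ends of the scale was called for 5 or 6 members under every setting that could be tested, beside 1486 to 3207 genes.

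In hashtag 1 the level was highest in the intermediate class for 9 of the 10 members, all but Fosl1. In hashtag 2 the highest class held the highest level for 7 members, namely the 6 called ones and Spry4. For Dusp6 the intermediate level was 146 CPM (95% Poisson interval 128 to 166) and the highest level 109 CPM (92.8 to 128), so that these intervals barely missed each other. Phlda1 went from 352 CPM (324 to 382) to 262 CPM (236 to 291). For the other 7 the intervals of these classes overlapped. Sums of hashtag 1 rest on few cells, and the cell with the most UMIs of a gene gave 12.8% to 20.9% of the UMIs of the 6 called members in its highest class, against 4.91% to 7.62% in hashtag 2.

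**Figure D3:**
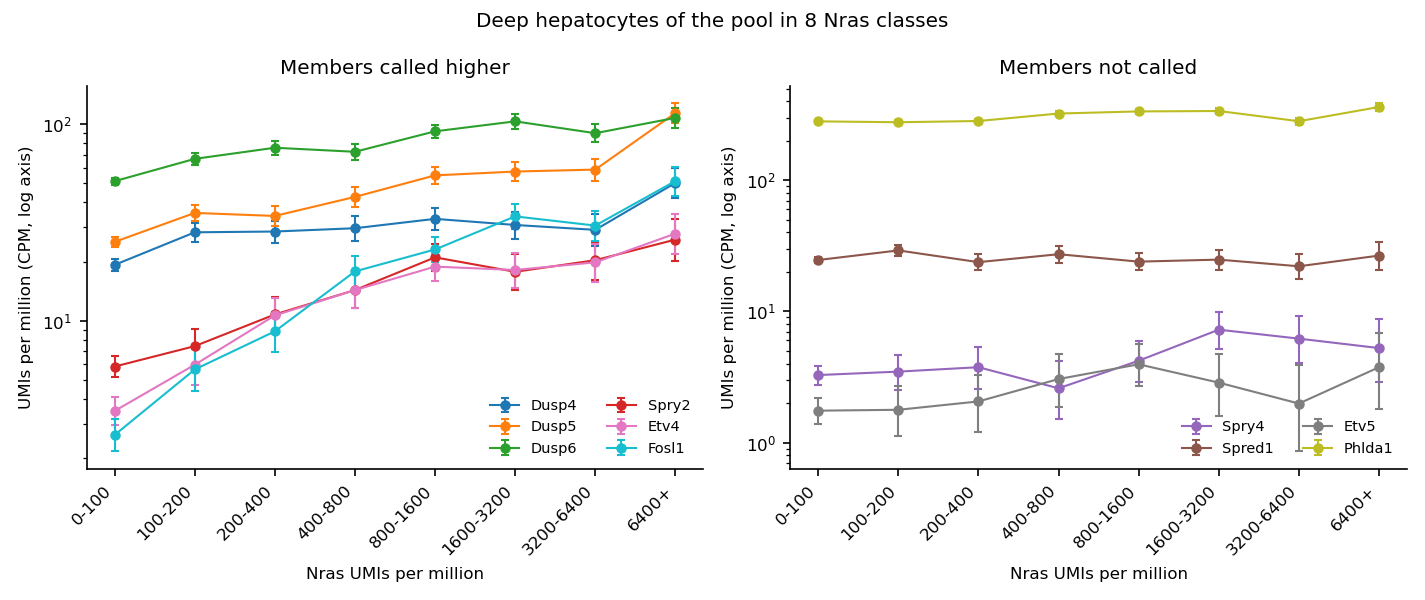
Level of each member (y axis, UMIs per 1000000 on a log axis) in 8 narrower classes of Nras UMIs per 1000000 (x axis) over all deep hepatocytes of the pool except hashtag doublets, with exact Poisson 95% intervals. The 6 called members (left) rise from the first class to the last, Fosl1 from 2.63 to 51.4 CPM, while Spred1 (right) stays between 22.1 and 29.2 CPM.

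With narrower classes, drawn over the deep hepatocytes of the pool with 1 hashtag or none, the rise was already present below the limit used for baseline. Cells under 100 Nras UMIs per 1000000 had 2.63 CPM of Fosl1 and 3.48 CPM of Etv4, and cells at 100 to 200 had 5.65 and 5.98 CPM. At 800 to 1600 the levels were 23.1 CPM for Fosl1 and 18.9 CPM for Etv4. In the 52 cells at 6400 and more, Fosl1 reached 51.4 CPM and Dusp5 114 CPM, against 30.5 and 58.8 CPM at 3200 to 6400. Dusp4 held between 28.2 and 33.0 CPM from 100 to 6400 and then stood at 50.3 CPM. The cells of these classes are not replicates, and no test was made.

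Deep hepatocytes with no hashtag call (851 barcodes) cannot be assigned to a mouse and entered no test, but they give the same measure in other cells. From 620 baseline to 44 highest cells, Fosl1 went from 4.32 to 45.8 CPM, Etv4 from 4.64 to 25.05 CPM and Spry2 from 7.67 to 25.6 CPM. Dusp5 went from 27.4 to 103.9 CPM, Dusp6 from 63.3 to 134 CPM and Dusp4 from 25.5 to 50.1 CPM. The counting intervals of baseline and highest cells did not overlap for any of the 6 called members. These intervals cover counting error only, and how many of all genes share this pattern was not tested. The cells come from the same pool of mice, so this is a description and not a replication. Spred1 had 26.3 and 27.7 CPM, and Etv5 had 1.78 and 1.60 CPM. Phlda1 differed from the tagged cells, with 259.9 CPM in baseline and 438 CPM in highest cells. The highest cells without a hashtag also had more Nras, 7520 CPM against 5565 CPM in those with one.

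Because deeper cells show more genes, shares of cells with a UMI were compared after each cell had been thinned to 10000 UMIs. Fosl1 was then seen in 0.70% of baseline and 29.6% of highest cells of hashtag 1 (exact binomial intervals 0.02 to 3.83% and 13.8 to 50.2%), and in 2.64% and 25.9% in hashtag 2. Unthinned, the shares were 2.80% and 59.3% in hashtag 1 and 8.85% and 68.2% in hashtag 2. Spry2 was seen in 4.90% and 25.9% in hashtag 1 and in 4.10% and 16.5% in hashtag 2, and Etv4 in 4.20% and 11.1% and in 3.30% and 12.9%. Conventional dendritic cells, thinned in the same way, had a Fosl1 UMI in 0 of 236 cells, which allows a share of up to 1.55% (exact binomial), and a UMI of Spry2 or Etv4 in 0.42% and 0.85%. These shares restate the summed levels at a fixed depth, and most cells of the highest class showed no Fosl1 at this depth.

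**Figure D4:**
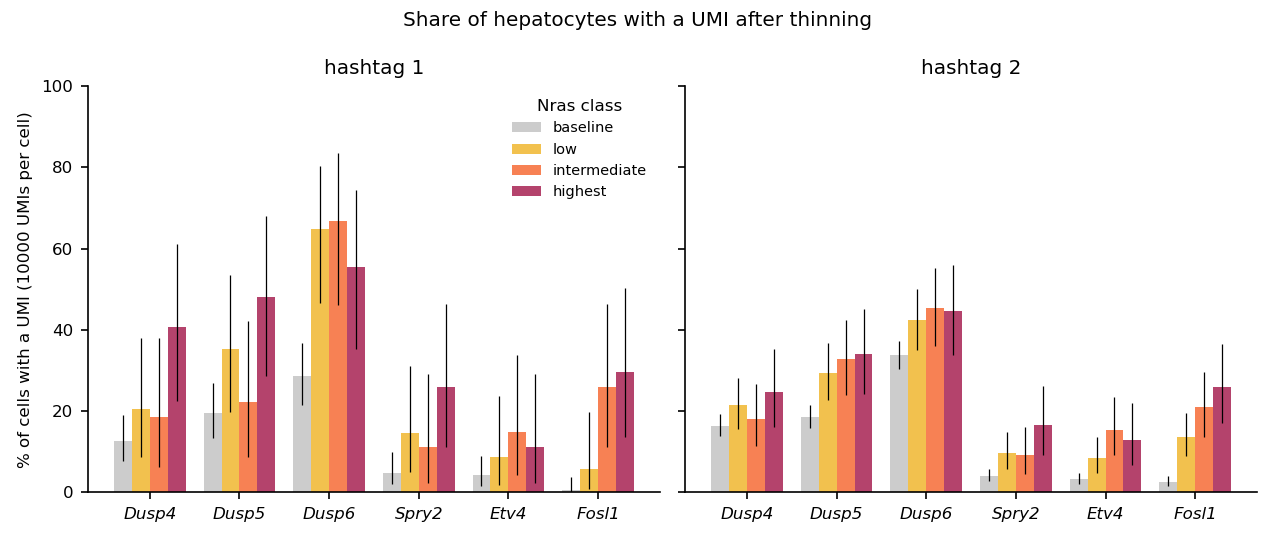
Share of deep hepatocytes with at least 1 UMI of each called member (y axis, percent from 0 to 100) after thinning each cell to 10000 UMIs, by Nras class (bars from grey to purple) for hashtag 1 (left) and hashtag 2 (right), with exact binomial 95% intervals. Fosl1 goes from 0.70% to 29.6% of cells in hashtag 1 and from 2.64% to 25.9% in hashtag 2.

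At the same depth a cell showed a mean of 1.71 of the 10 members in baseline and 3.22 in highest cells of hashtag 1, and 1.90 and 2.77 in hashtag 2. Of the 6 called members, none was seen in 1 of 27 highest cells of hashtag 1 and in 18 of 85 of hashtag 2, and at least 3 were seen in 10 and 15. Etv4 and Fosl1 were seen together in 1 cell of hashtag 1 and 3 cells of hashtag 2, Fosl1 alone in 7 and 19, and Etv4 alone in 2 and 8. Across single cells Spearman's rho between the CPM of Nras and of a member was 0.50 for Fosl1 in the 231 cells of hashtag 1 and 0.46 in the 1129 of hashtag 2, and 0.43 and 0.42 for Etv4. It was 0.07 and 0.06 for Spred1. These are descriptions, since cells of a mouse share its library and the 2 measures share a cell's depth.

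The other genes of the pathway were read from 4 lists in the same fit. Of 16 tested genes among other feedback regulators, 3 were called higher, 0 lower and 13 not, with a median log2 fold change of 0.20. Over all genes tested, 13.2% were called higher and 26.1% in either direction. These were Dusp7 (1.51, SE 0.29, adjusted p = 0.0027), a cytoplasmic ERK phosphatase, Spred3 (1.36, SE 0.45, adjusted p = 0.046) and Dusp10 (1.27, SE 0.19, adjusted p = 0.00052), a phosphatase for JNK and p38. Dusp10 went from 8.76 to 19.3 CPM between baseline and highest cells of hashtag 1 and from 7.96 to 20.3 CPM for hashtag 2. Spred3 was sparse, with 11 and 6 UMIs in baseline and highest cells of hashtag 1 and 43 and 21 in hashtag 2. The share of feedback genes called outside the set of 10 lies near that over all genes, and most were not called at this depth.

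Of 16 tested immediate early and AP-1 genes, which respond within minutes to ERK and to many other stimuli, 5 were called higher and 1 lower. Their median was 0.01, and over all genes 13.2% were called higher and 12.9% lower. Ier3 rose most (2.03, SE 0.13, adjusted p = 2.2e-06), followed by Fosl2 (1.09), Maff (0.60) and Myc (0.59), and Ier2 fell by 0.46 on the log2 scale (adjusted p = 0.034). Fosl2 encodes FRA2, the nearest relative of the Fosl1 product, and it had 8.35 and 20.03 CPM in baseline and highest cells of hashtag 1 and 6.02 and 11.98 CPM for hashtag 2.

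Of 15 tested genes among other outputs of the pathway, 14 were called higher, with a median of 2.51, and only Phlda2 was not (0.58, adjusted p = 0.081). In the same fit 13.2% of all genes were called higher and 26.1% in either direction. This list was chosen with earlier results of these data known, so its count is not independent evidence of a direction. The leading genes were Ptgs2 (6.72), the inducible cyclooxygenase, Ereg (4.004), the ligand epiregulin, Emp1 (3.83) and Plaur (3.64), the urokinase receptor. Plaur went from 9.17 to 95.9 CPM for hashtag 1 and from 9.18 to 122 CPM for hashtag 2. Ptgs2 was seen in few cells, 2 of 27 highest cells in hashtag 1, of which a single cell gave 71.6% of the UMIs, and 16 of 85 in hashtag 2.

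Of 29 tested genes of the core cascade, 6 were called higher and 2 lower, with a median of 0.22. This share lies near the 26.1% of all genes called in this fit. Rps6ka2 (1.95, adjusted p = 0.016) encodes an ERK-activated kinase, Elk3 (1.699, adjusted p = 6.2e-05) and Ets1 (1.37, adjusted p = 0.0017) encode ETS factors, and Mapk3 (0.64, adjusted p = 0.0026) encodes ERK1. The receptor gene Fgfr4 fell by 0.87 (adjusted p = 0.035) on the log2 scale. Fgfr4 had 7.74 and 2.86 CPM in baseline and highest cells of hashtag 1, and 9.12 and 5.603 CPM for hashtag 2. Rps6ka2 was sparse, with 5 and 3 UMIs in baseline and highest cells of hashtag 1 (1.02 and 2.15 CPM). In hashtag 2 it had 65 and 47 UMIs (2.04 and 9.08 CPM).

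Among 8056 genes that reached 10 CPM in any of the 9 sums, those whose pattern over the sums was most like the mean of the 10 members included Igfbp1 (Pearson's r 0.99), Gcnt2 (0.98), H2afj (0.98) and Hilpda (0.98). Igfbp1, a secreted binding protein for insulin-like growth factors, had 803, 1863, 3764 and 3091 CPM for hashtag 1 and 1008, 2155, 2596 and 3155 CPM for hashtag 2. Like 6 of the members, it peaked in the intermediate class of hashtag 1 and in the highest class of hashtag 2. The sums share mice and Nras classes, so this likeness is a description.

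The members were then set beside the other cell types of the pool, gated by at least 3 markers of the type and no hepatocyte gate. Endothelial cells (528 with a hashtag, 466 of them of hashtag 3), T and NK cells (78), conventional dendritic cells (421) and mature dendritic cells (262) had at least 20 cells in 2 or more hashtags. Their markers stood out as the names require, with Clec4g at 2951 CPM in endothelial cells against 22.2 CPM in all other cells. These cells were shallower than the hepatocytes, with median depths of 3816, 3270, 10457 and 8959 UMIs. Their mVenus levels were 16.6, 6.02, 2.67 and 6.69 CPM, beside 5.82 CPM in baseline and 329.5 CPM in highest hepatocytes. Etv5 was too low to enter this fit, so 9 of 10 members were tested. Fosl1 passed the filter only through the highest hepatocytes and Spry4 only through the endothelial cells, and Etv4 reached the cutoff of 7.15 CPM only in the highest hepatocytes and in 1 sum of T and NK cells. These 3 genes are therefore described and left out of the calls listed by member below. Counts over all 9 tested members include them and are named as such.

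**Figure D5:**
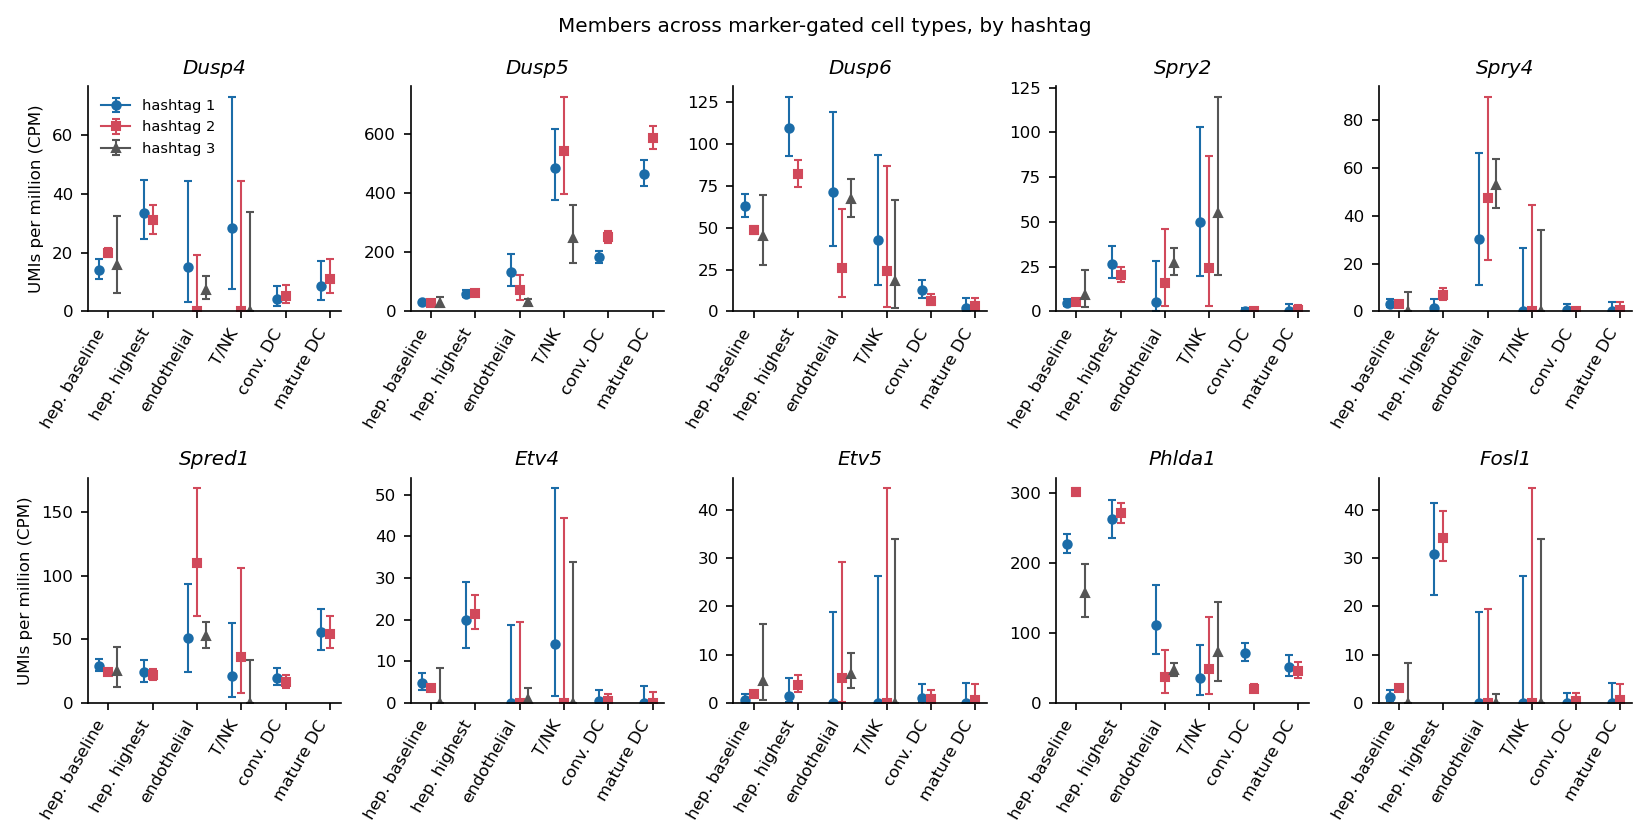
Level of each member (y axis, UMIs per 1000000 on a linear scale from 0) in baseline and highest Nras hepatocytes and in 4 gated cell types (x axis), for each hashtag with at least 5 hepatocytes or 20 cells of a type, with exact Poisson 95% intervals. Dusp5 reaches 248 to 542 CPM in T and NK cells and 465 to 587 CPM in mature dendritic cells, Spry4 stands out in endothelial cells, and Fosl1 is at 0.69 CPM or less in all 4 types.

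Dusp5 stood higher in lymphoid and dendritic cells than in hepatocytes. It had 485, 542 and 248 CPM in T and NK cells of hashtags 1, 2 and 3, 465 and 587 CPM in mature dendritic cells of hashtags 1 and 2, and 183 and 250 CPM in conventional dendritic cells. Every one of these was above the 63.0 CPM of highest hepatocytes of hashtag 2. In highest hepatocytes Dusp5 was lower by a log2 difference of -2.64 than in T and NK cells (SE 0.35, adjusted p = 9.1e-05), by -3.41 than in mature dendritic cells (SE 0.35, adjusted p = 4.1e-06) and by -1.95 than in conventional dendritic cells (SE 0.34, adjusted p = 0.00025). Against endothelial cells the difference was 0.05 (95% interval -0.69 to 0.79), and its sign changed with the setting.

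Spry4 and Spred1, which were not called with Nras in hepatocytes, stood higher in endothelial cells. Spry4 had 30.4, 47.3 and 52.7 CPM there in hashtags 1, 2 and 3, against 3.06, 3.32 and 0 CPM in baseline hepatocytes, a fitted log2 difference of -3.21 for hepatocytes, given as a description since Spry4 passed the filter on low counts only through the endothelial sums. Spred1 had 50.7, 110.2 and 52.7 CPM in endothelial cells against 29.3, 24.7 and 24.8 CPM in baseline hepatocytes (log2 difference -0.86, SE 0.30, adjusted p = 0.030). Both genes had the higher level in endothelial cells in every hashtag. The counting intervals of Spry4 did not meet in any hashtag, while those of Spred1 met in hashtags 1 and 3. Of the 20 baseline hepatocytes of hashtag 3, which entered this fit, 13 also passed the endothelial marker gate.

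Fosl1 was the opposite case. It had 0 UMIs among 2416431 of endothelial cells and 1 UMI each in the conventional and mature dendritic cells, and 0 among 332116 UMIs of T and NK cells. Of the endothelial UMIs, 2028865 came from hashtag 3, which gave too few highest hepatocytes to be used. Within hashtags 1 and 2 endothelial cells were at 0, with upper Poisson bounds of 18.7 and 19.4 CPM. Highest hepatocytes there had 30.8 and 34.2 CPM, with lower bounds of 22.3 and 29.4 CPM. Against a floor of 3 UMIs over T and NK cells of hashtags 1 to 3 (9.03 CPM), the 33.7 CPM of highest hepatocytes was at least 3.73-fold higher. That bound pools mice. Etv4 was at 0 UMIs in mature dendritic cells, where highest hepatocytes were at least 17.2-fold higher, and at 2 UMIs in endothelial and in conventional dendritic cells. In T and NK cells it also had 2 UMIs, both in 1 cell, which at their lower depth is 6.02 CPM (95% Poisson interval 0.73 to 21.8), beside 3.73 CPM in baseline hepatocytes. Phlda1 was lower in all 4 types, at 35.7 to 73.5 CPM in T and NK cells, 36.8 to 112 CPM in endothelial cells and 20.6 to 72.0 CPM in dendritic cells of hashtags 1 and 2, against 158 to 302 CPM in baseline hepatocytes. In baseline hepatocytes it was higher than in endothelial cells by a log2 difference of 2.49 (SE 0.43, adjusted p = 0.00037).

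Over the other 6 tested members, highest hepatocytes against endothelial cells gave 3 higher (Dusp4, Dusp6 and Phlda1) and 1 lower (Spred1), where 13.9% of 10965 genes were called higher and 22.1% lower, 36.0% in all. Baseline hepatocytes gave 1 higher (Phlda1) and 1 lower (Spred1), beside 19.2% and 22.0% of genes, 41.2% in all. Against conventional dendritic cells Dusp4, Dusp6, Spry2 and Phlda1 were higher and Dusp5 lower in highest hepatocytes, beside 26.9% and 21.2% of genes, 48.1% in all, and the same 5 calls were made in baseline hepatocytes, beside 33.3% and 21.8%, 55.0% in all. Against mature dendritic cells Dusp4, Dusp6, Spry2 and Phlda1 were higher and Dusp5 and Spred1 lower in highest hepatocytes, beside 24.4% and 20.1% of genes, 44.6% in all. In baseline hepatocytes Dusp6, Spry2 and Phlda1 were higher and Dusp5 and Spred1 lower, beside 30.6% and 20.1%, 50.8% in all. Against T and NK cells Dusp6 and Phlda1 were higher and Dusp5 lower in highest hepatocytes, beside 15.0% and 10.9% of genes, 25.9% in all, and in baseline hepatocytes Spry2 was lower as well, beside 20.1% and 11.8%, 32.0% in all.

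Some of these comparisons rested on few mice. Highest hepatocytes, conventional dendritic cells and mature dendritic cells each had sums of hashtags 1 and 2 only. Leaving out either hashtag leaves 1 sum in such a group, so counts of calls from those fits are not read as results. They are listed only with the processing settings below. Baseline hepatocytes, T and NK cells and endothelial cells kept 2 sums each. Counted over all 9 tested members, with Fosl1, Spry4 and Etv4 included, baseline hepatocytes against T and NK cells gave 4 members and 3508 genes. These became 2 and 1775 without hashtag 1, 3 and 2274 without hashtag 2, and 3 and 2790 without hashtag 3. Against endothelial cells, 3 members and 4521 genes became 2 and 2679, 2 and 2669, and 4 and 3577 in the same order. The hepatocytes were deep cells only while the other types were not, and the part of depth in these differences was not tested.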

How the data were processed

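Transcripts of sorted liver cells from 3 mice were measured in 1 pooled 10x 3′ library with a hashtag library. The authors deposited raw UMI counts per gene and per hashtag. They aligned reads to mm10 with Cell Ranger (2.1.1 in the submitters' processing notes, 3.0.2 in the matrix header) and counted hashtags with CITE-seq-Count. The members and lists were chosen with earlier results of these data known.

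Barcodes with at least 1000 UMIs, 500 genes and under 20% mitochondrial UMIs were kept. Hashtags were called with HTODemux (Seurat 5.3.0, quantile 0.99), and its doublets were left out. Nras and mVenus stayed out of library sizes. UMIs were summed per hashtag and Nras class (at least 5 cells) or cell type (at least 20 cells), which gave 9 sums for the Nras classes, and fitted with edgeR 4.0.16 (TMM, filterByExpr, quasi-likelihood test, R 4.3.3) with hashtag as a replicate block, since sums of 1 hashtag come from the same mouse. P-values were adjusted by Benjamini-Hochberg, with a threshold of 0.05. Intervals of counts are exact Poisson and those of shares exact binomial (95%), and both cover counting error only. DESeq2 1.42.0, other limits, depths, filters and hashtag rules were alternatives. In simulated sums of 10988 genes, the fit from baseline to highest recovered 19 of 100 changes of 2-fold and 82 of 100 of 4-fold. It made 4 false calls. These counts hold at the simulated spread only, and an uncalled member is read by its own 95% interval from baseline to highest. On the log2 scale those of Spred1 (-0.50 to 0.11) and Phlda1 (-0.30 to 0.34) stayed short of a 2-fold change. Those of Etv5 and Spry4 reached beyond a 2-fold rise. From each pathway list and direction, up to 4 called genes with the largest change were named, and the 5 genes most like the mean log2(CPM + 1) of the members. Of the genes this rule names, 2 are not reported here. Barcodes called for no hashtag, equal weight per cell and the 8 narrower Nras classes were added after seeing the data.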

Additional observations from a re-analysis of the deposited data

Results flagged for a closer look

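Spry4 moved in opposite directions in the mice, with a log2 ratio of highest over baseline of -0.82 in hashtag 1 and 1.08 in hashtag 2. The highest class of hashtag 1 held 2 Spry4 UMIs. Phlda1 also differed in sign, with 0.21 in hashtag 1 and -0.15 in hashtag 2. Neither difference between mice was tested.

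Outside the tested sums, hashtag-negative deep hepatocytes of the highest Nras class had 45.8 CPM of Fosl1 and 25.05 CPM of Etv4. Barcodes that passed the cholangiocyte gate and not the hepatocyte gate, 35 in the pool, had 62.6 CPM of Fosl1 and 37.9 CPM of Etv4, with an Nras level of 5523 CPM.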

How the results depend on the processing

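From baseline to highest Nras, 5 or 6 members were called under every alternative that could be fitted, and 2869 genes became 1486 with DESeq2 and 1559 with doubled Nras limits. Leaving out hashtag 1 or 2 left no residual degrees of freedom among the Nras classes, so those fits were not run. From baseline to low (3 members, 460 genes), members and genes called were 1 and 236 with DESeq2, 6 and 936 with doubled limits, 0 and 5 with halved limits, 0 and 9 with mVenus in place of Nras, 6 and 912 without the filter on low counts, and 1 and 141 without the replicate block, and 225 genes were called with cells of at least 1000 UMIs. From low to intermediate (2 members, 201 genes), members called were 0 with DESeq2, 0 with doubled limits, 0 without the replicate block, and 1 with halved limits, with cells of at least 1000 or at least 5000 UMIs, or without cells passing another gate. Genes called there were 17 with doubled limits, 95 with halved limits, 115 at 1000 UMIs, 302 with a fixed hashtag rule, 619 without the filter and 1 without the replicate block. From intermediate to highest (1 gene), genes called were 25 with DESeq2, 7 with halved limits, 0 at 1000 UMIs, 3 at 5000 UMIs, 29 with the fixed hashtag rule, 8 with mVenus, 275 without the filter, 0 without the replicate block, 90 without cells passing another gate and 0 without hashtag 3. Baseline hepatocytes against endothelial cells gave 6 members and 5525 genes without the replicate block in place of 3 and 4521. These members are counted over all 9 tested, with Fosl1, Spry4 and Etv4 included. Unthinned, highest cells showed a mean of 6.31 members in place of 2.89.

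Leaving out 1 hashtag at a time, baseline hepatocytes gave 2 to 3 members and 1775 to 2790 genes against T and NK cells, 3 to 9 and 2997 to 6153 against conventional dendritic cells, 2 to 4 and 2669 to 3577 against endothelial cells, and 2 to 6 and 2351 to 5729 against mature dendritic cells. Highest hepatocytes gave 2 to 4 and 1158 to 2317, 7 to 8 and 2354 to 5424, 2 to 7 and 1730 to 3297, and 5 to 8 and 1722 to 5043.

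In the ranges just listed, members are counted over all those tested, with Fosl1, Spry4 and Etv4 included. Some of those fits left 1 sum of highest hepatocytes or of dendritic cells. Such a group has no spread of its own, so no conclusion is drawn from these counts. Log2 differences that changed sign were not called in either setting. From intermediate to highest they were 0.379 with doubled limits, 0.233 with the fixed hashtag rule, 0.0179 without cells passing another gate and 0.127 with mVenus for Dusp4. Dusp5 gave -0.0105 without cells passing another gate. Dusp6 gave 0.145 with halved limits, 0.0303 with doubled limits, 0.0467 with the fixed rule and 0.258 with mVenus. Etv5 gave 0.119 and Spry2 -0.142 without cells passing another gate, and Spry2 -0.161 with the fixed rule. Phlda1 gave 0.0958 with doubled limits and 0.0938 with mVenus, Spred1 0.115 with doubled limits, and Spry4 -0.0108 at 1000 UMIs and -0.241 with the fixed rule. From low to intermediate, doubled limits gave -0.199 for Dusp4 and -0.352 for Phlda1, mVenus gave -0.0267 for Phlda1, and Spred1 gave 0.00656 at 1000 UMIs, 0.0473 with halved limits and 0.0557 with the fixed rule. From baseline to low, halved limits gave -0.182 for Etv5. Spred1 gave -0.0115 without the filter, -0.0141 at 5000 UMIs, -0.0133 at 1000 UMIs, -0.0163 with halved limits, -0.0112 with doubled limits and -0.124 with the fixed rule. Spry4 gave 0.101 at 1000 UMIs, 0.0654 with halved limits, 0.0695 with doubled limits and 0.111 with the fixed rule. From baseline to highest, Phlda1 gave -0.0263 without cells passing another gate. In baseline hepatocytes against T and NK cells, Fosl1 gave -0.111 with DESeq2, and Etv4 ranged from -0.935 to 6.38 when 1 hashtag was left out. In highest hepatocytes against T and NK cells Spry2 ranged from -0.394 to 0.057 when 1 hashtag was left out. Against endothelial cells Dusp5 gave -0.0202 with DESeq2 and ranged from -0.191 to 0.78 when 1 hashtag was left out. The causes were not tested. Depth limits what can be said of Etv5 and Spry4, which had 2 UMIs each in the highest class of hashtag 1.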

Other observations

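The 35 cholangiocyte-gated barcodes, of which 14 carried a single hashtag call, also held 123 CPM of Dusp5, 125 CPM of Dusp6, 55.4 CPM of Dusp4, 39.0 CPM of Spry2 and 538 CPM of Phlda1. Each of these levels lay above that of the highest Nras hepatocytes of hashtag 1 and of hashtag 2, while the highest hepatocytes without a hashtag call had 134 CPM of Dusp6, above the 125 CPM here. The barcodes are too few per mouse for a test.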
